A study of Mus musculus with 12 samples.

Results

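The cytosolic ribosomal protein genes are the genes for the protein subunits of the ribosome that works outside the mitochondria. They were taken by symbol: a symbol that began with Rpl or Rps and a number, or was Rplp0, Rplp1 or Rplp2, was kept unless it named an S6 kinase (Rps6k) or carried the pseudogene mark -ps. The rule found 67 of the 19505 symbols on the array, each with 1 probe set. The rule reads names and no measured value, although the gene family was chosen for description with earlier results of these data known. Of these 67 genes, 41 carry a large subunit symbol (Rpl, Rplp) and 26 a small subunit symbol (Rps). From their names and known roles, 54 are the ordinary ribosomal protein genes, called core genes here (33 large, 21 small), 11 are copies or tissue-restricted paralogs of such genes, and 2 are not ribosomal proteins at all: Rps19bp1, which encodes a binding partner of Rps19, and Rps23rg1, a gene that arose by retroposition of Rps23. Other ribosomal protein genes, among them Rplp2, Rpl10, Rpl12, Rps2 and Rps3, were not analysed here.

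The signals come from livers of 12 adult male C57BL/6J mice, 1 array per mouse. Dams that were wild type (WT) or lacked uncoupling protein 1 (UCP1-KO), the protein that lets brown fat burn fuel for heat, were crossed with heterozygous sires, and offspring labelled HET from both crosses were studied. The comparison asks whether the brown fat function of the mother shows in the liver of her sons. Arrays 1 to 6 are sons of WT dams and arrays 7 to 12 sons of UCP1-KO dams, all 4 to 5 months old, on chow at 23 °C. All 12 sons have the same label for their own genotype, so the groups differ in the dam. The parent that passed on the mutant allele differs with her and cannot be told apart from her genotype. Litters are not given, so the p-values reflect the variation among these sons, and brothers may be among them.

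A ribosome is built from a large subunit, which joins amino acids in its peptidyl transferase centre and releases the chain through an exit tunnel, and a small subunit, which reads the messenger RNA. Cells make the protein subunits in balanced amounts, and ribosome production is among the largest expenses of a growing cell. Most ribosomal protein messengers begin with a run of pyrimidines, the terminal oligopyrimidine (TOP) tract, through which the kinase mTOR and the protein LARP1 control how strongly they are translated. That control acts on translation and on messenger stability, and an array sees only the amount of messenger.

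The TOP tract can be seen in the reference at some of the annotated start sites. In RefSeq (GRCm38.p6), 54 of the 67 genes and 42 of the 54 core genes had a promoter entry, with 51 entries for the core genes. A C at the annotated start followed by at least 4 pyrimidines was present in 11 of these 51 windows (21.6%), against 823 of 32851 windows of all genes (2.51%). A tract that began within 5 bases of the annotated start was found in 39.2% of core windows and 18.3% of all windows. The 30-base windows below run from 15 bases before to 15 bases from the annotated start, 5′ to 3′, and are shown for 4 core genes with the tract at the start, whose differences between the groups spanned -0.25 to 0.47, and for 4 of the genes with the highest signals relative to the WT-dam group, which have no such run at the annotated base. Capitals mark the tract.
Rps6, chr4:86857353-86857382, minus strand: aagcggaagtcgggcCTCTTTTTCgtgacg
Rps15a, chr7:118116133-118116162, minus strand: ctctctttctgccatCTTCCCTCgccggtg
Rpl28, chr7:4792950-4792979, plus strand: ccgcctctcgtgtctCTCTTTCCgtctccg
Rpl38, chr11:114668565-114668594, plus strand: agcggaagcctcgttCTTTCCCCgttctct
Rpl5, chr5:107900513-107900542, plus strand: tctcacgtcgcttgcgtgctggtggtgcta
Rps4x, chrX:102189377-102189406, minus strand: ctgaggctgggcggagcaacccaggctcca
Rps7, chr12:28635939-28635968, minus strand: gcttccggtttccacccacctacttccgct
Rps3a1, chr3:86142654-86142683, minus strand: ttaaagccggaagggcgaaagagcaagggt

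The same entries, 250 bases before to 50 after the start, were searched on both strands for 5 short motifs. CCGGAAG, the kind of site that the factor GABP binds, was in 37.3% of core windows and 8.86% of all windows, and AAGATGG, a YY1-type site, in 17.6% and 6.34%. GGGCGG, an Sp1-type site, was in 56.9% and 35.7%, CACGTG, a Myc-type E-box, in 9.80% and 7.15%, and TATAAA in 9.80% and 13.6%. CCGGAAG and AAGATGG can share the letters AAG, and the median GC content was 57.0% in core windows and 52.7% in all. A match of letters is a description and not a measured binding site. The 250 bases upstream of Rps3a1 and Rps7 are shown because these genes were among the small subunit genes that differed most between the groups and both have the GABP-type letters close to the start, marked in capitals (in Rps7 they lie on the opposite strand and read CTTCCGG).
Rps3a1, chr3:86142669-86142918, minus strand: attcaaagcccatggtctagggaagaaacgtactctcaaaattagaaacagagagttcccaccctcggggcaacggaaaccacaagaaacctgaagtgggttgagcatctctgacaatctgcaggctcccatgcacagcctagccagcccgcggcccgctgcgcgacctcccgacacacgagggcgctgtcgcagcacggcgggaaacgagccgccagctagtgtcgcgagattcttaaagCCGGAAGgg
Rps7, chr12:28635954-28636203, minus strand: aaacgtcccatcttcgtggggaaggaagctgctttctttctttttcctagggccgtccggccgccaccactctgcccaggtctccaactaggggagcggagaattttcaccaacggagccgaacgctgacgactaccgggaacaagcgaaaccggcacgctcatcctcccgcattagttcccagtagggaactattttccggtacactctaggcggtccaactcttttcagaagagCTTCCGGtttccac

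The differences between the groups, described below, were set beside these letters. The 11 core genes with the tract had a median log2 difference of 0.20 and the other 31 core genes with an entry 0.27. The 18 core genes with CCGGAAG had a median of 0.16 and the 24 without it 0.30. These are descriptions of the values with no test.

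The arrays differed in their negative controls, and this difference is set beside most results below. Its cause was not tested. The 5222 probe sets named as negative controls had a median of 6.41 to 6.62 (log2 signal) on WT-dam arrays 3 to 6. It was 6.14 on WT-dam arrays 1 and 2 and 5.96 to 6.36 on the 6 UCP1-KO-dam arrays. What these probe sets target was not checked here. The group means were 6.39 ± 0.21 and 6.21 ± 0.14 (SD, n = 6 per group). An exact permutation test, two-sided, gave p = 0.119, where the smallest p it allows is 0.00216. Arrays 3 to 6 therefore had brighter negative controls than every other array, and all of them belong to the WT-dam group. The labels name no batch for them. The positive control medians were 9.94 to 9.98 on arrays 3 to 6, 10.10 to 10.14 on arrays 1 and 2 and 9.90 to 10.15 on the UCP1-KO-dam arrays. The background control means were 4.95 to 5.05, 5.00 to 5.02 and 5.00 to 5.03. The values of Alb, Ttr and the other measured hepatocyte markers, 6 of 7 listed, averaged 18.76 to 19.05 on every array, near the top of the scale at 19.72, which fits the label liver. In whole liver RNA, fewer cells of a type and less RNA per cell cannot be told apart. Of the 67 genes, 65 had a mean signal above the mean negative control level of 6.3. Rpl3l, a muscle paralog of Rpl3, and Rpl39l, a testis paralog of Rpl39, read 3.98 and 5.62 and lay below it. So did 11301 of all 22206 probe sets.

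Ribosomal protein genes of both subunits read slightly higher in the sons of UCP1-KO dams, and none passed the test. All differences below are UCP1-KO dam minus WT dam on the log2 scale, from limma with all 12 arrays, and a gene counts as called at a Benjamini-Hochberg adjusted p under 0.05 over the 22206 probe sets. By that rule 0 of 41 large subunit and 0 of 26 small subunit symbols were called, where 0.0360% of all probe sets were (8 of 22206). At an unadjusted p under 0.05, 10 large subunit symbols were higher (24.4%) and 0 lower, and 9 small subunit symbols were higher (34.6%) and 0 lower, against 7.08% higher and 6.00% lower over all probe sets. The difference lay above 0 for 32 of 41 large and 24 of 26 small subunit symbols, and for 56.8% of all probe sets. The median difference was 0.14 in the large subunit and 0.23 in the small subunit, 0.19 and 0.26 for the core genes alone, and 0.03 both over all probe sets and over the 1951 brightest symbols. The groups did not overlap, with every UCP1-KO-dam array above every WT-dam array, for Rpl4, Rpl5, Rpl7a, Rpl22, Rps3a1, Rps4x and Rps20, 7 of the 67 genes, against 0.626% of all probe sets. Of the 1951 brightest symbols 37 (1.896%) had this separation and 10.8% were higher at an unadjusted p under 0.05. The opposite separation held for 0 genes, against 0.423%.

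**Figure D1:**
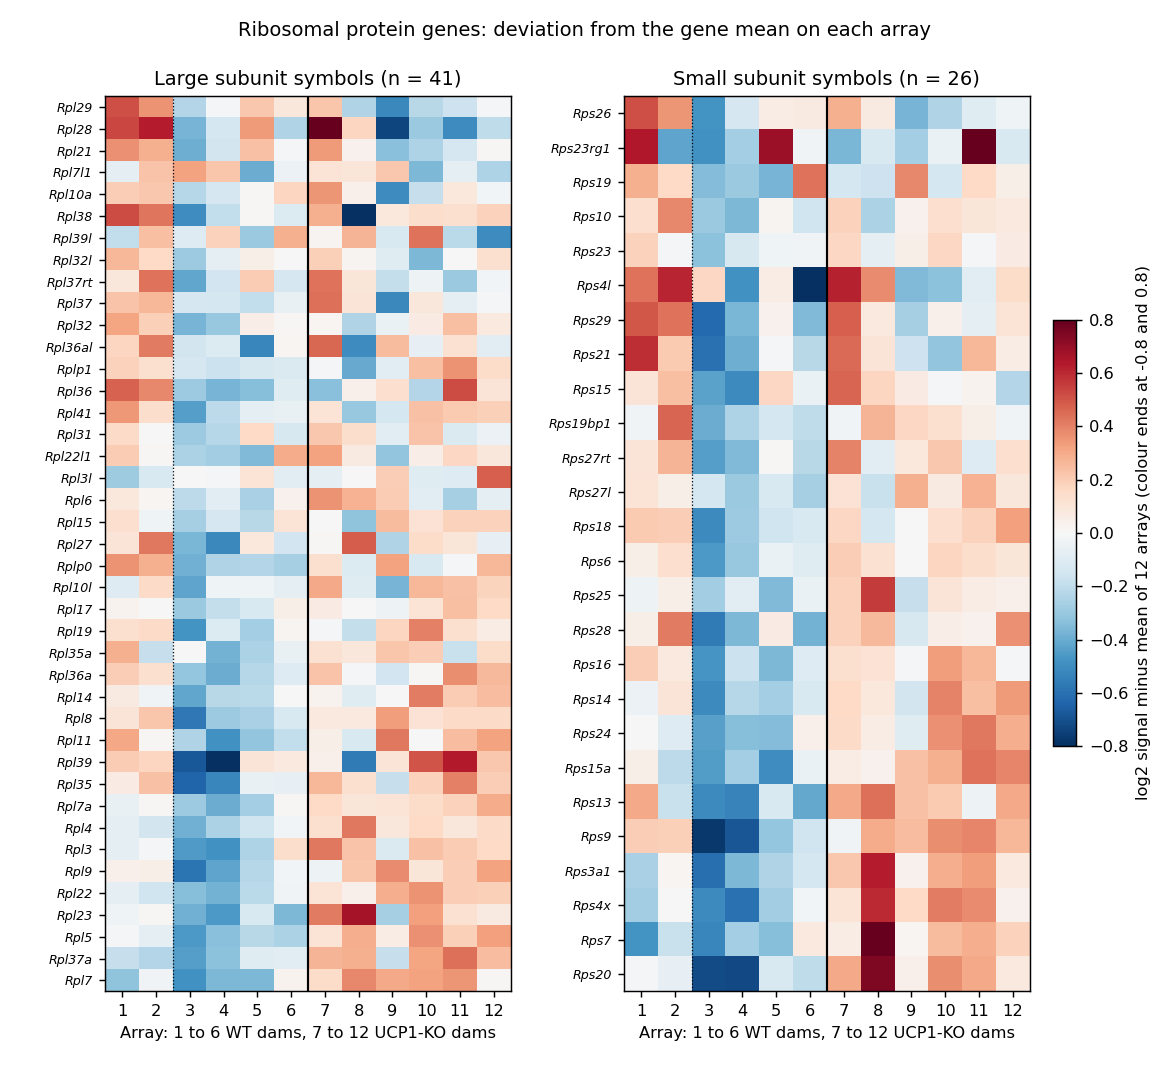
Deviation of each gene from its own mean over 12 arrays (colour, log2, ends at -0.8 and 0.8), with arrays as columns and genes as rows, ordered within each subunit by the difference between the groups. The solid line parts WT-dam from UCP1-KO-dam arrays and the dotted line parts WT-dam arrays 1 and 2 from 3 to 6; blue, for values below the gene mean, fills most of arrays 3 to 6, and the genes at the bottom are also above their mean on most of arrays 7 to 12.

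In the large subunit the highest test statistics belonged to Rpl7, Rpl5, Rpl37a and Rpl22. Rpl7, an RNA-binding protein of the subunit, read 14.19 at the lowest, 14.33 at the median and 14.70 at the highest in the WT-dam group, and 14.68, 14.98 and 15.06 in the UCP1-KO-dam group. Of the 6 UCP1-KO-dam arrays, 5 lay above all WT-dam arrays. The log2 difference was 0.51 (95% interval 0.23 to 0.78, limma adjusted p = 0.129).

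Rpl5 and Rpl11 carry the 5S ribosomal RNA into the large subunit and, when not built in, bind Mdm2 and so stabilise p53. Rpl5 read 13.72, 13.94 and 14.16 (lowest, median, highest) in the WT-dam group and 14.24, 14.42 and 14.54 in the other, with no overlap. Its difference was 0.45 (interval 0.20 to 0.71, adjusted p = 0.135). Rpl11 read 13.86, 14.12 and 14.65 against 14.22, 14.49 and 14.77, a difference of 0.31 (interval -0.01 to 0.62, adjusted p = 0.393). The Rpl11 groups overlapped, with WT-dam array 1, at 14.65, above 4 of the 6 UCP1-KO-dam arrays.

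Rpl37a, a zinc-finger ribosomal protein, read 11.83, 12.06 and 12.18 in the WT-dam group and 12.08, 12.55 and 12.71 in the UCP1-KO-dam group. The lowest of the latter, array 9, stood apart from the other 5. The difference was 0.46 (interval 0.18 to 0.73, adjusted p = 0.157), and 0.54 without array 9. Rpl22, which has a close paralog in Rpl22l1, read 13.20, 13.39 and 13.55 against 13.62, 13.77 and 13.94, with no overlap and a difference of 0.40 (interval 0.15 to 0.64, adjusted p = 0.169). Rpl22l1 itself had a difference of 0.13 (interval -0.19 to 0.44).

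The genes around the catalytic centre and the exit tunnel also lay above 0 on 12 arrays. Rpl3, Rpl4 and Rpl8, the 3 measured of 4 listed neighbours of the peptidyl transferase centre, had differences of 0.38, 0.35 and 0.30, each with an unadjusted p under 0.05. Rpl4, which also lines the tunnel, read 15.45, 15.68 and 15.82 against 15.93, 15.98 and 16.26 with no overlap (interval 0.10 to 0.59, adjusted p = 0.217). Of the 8 listed tunnel proteins 6 were measured and all 6 lay above 0, with a median of 0.25, although only Rpl4 had an unadjusted p under 0.05. Over all probe sets 56.8% lay above 0 and 7.08% were higher at that p. Without WT-dam arrays 3 to 6 the tunnel list had 3 of 6 above 0 and a median of -0.0014. Rpl17 and Rpl31, at the tunnel rim, had 0.18 and 0.11. Rpl39, in the tunnel wall, had 0.31 with standard deviations of 0.46 and 0.42, so its interval ran from -0.15 to 0.77.

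The stalk, which recruits the elongation factors, gave small differences with wide intervals. Rplp0 read 10.41, 10.55 and 11.15 in the WT-dam group and 10.67, 10.85 and 11.11 in the other, and the ranges overlapped almost fully. Its difference was 0.16 (interval -0.16 to 0.48). Rplp1 had 0.08 (interval -0.22 to 0.38), with 15.23, 15.28 and 15.58 against 14.997, 15.46 and 15.76. These intervals include changes of up to 0.48 and 0.38 upward, so equal levels are not shown.

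Some large subunit genes lay lower in the sons of UCP1-KO dams, none with an unadjusted p under 0.05. Rpl29, a protein found in eukaryotes but not in bacteria, read 12.55, 12.94 and 13.30 against 12.27, 12.59 and 13.01, a difference of -0.31 (interval -0.63 to 0.01, adjusted p = 0.393). Rpl28, another protein of eukaryotes, read 15.17, 15.64 and 16.17 against 14.80, 15.29 and 16.35, a difference of -0.25 (interval -0.75 to 0.25, adjusted p = 0.696). For Rpl28 the highest and the lowest array of all 12 both belonged to the UCP1-KO-dam group. Rpl21 had -0.11 and Rpl7l1, a homolog of Rpl7, -0.08. Every one of these intervals reached above 0.

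In the small subunit the 4 genes with the highest test statistics were Rps4x, Rps3a1, Rps20 and Rps7. Rps4x, whose gene lies on the X chromosome, read 12.10, 12.42 and 12.70 (lowest, median, highest) in the WT-dam group and 12.73, 12.97 and 13.30 in the UCP1-KO-dam group. The groups did not overlap, and the difference was 0.56 (interval 0.26 to 0.87, adjusted p = 0.129). Rps3a1, which sits on the platform where the messenger leaves the ribosome, read 12.81, 13.17 and 13.43 against 13.45, 13.67 and 14.04, again with no overlap. Its difference was 0.53 (interval 0.24 to 0.82, adjusted p = 0.130).

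Rps20, a protein of the head of the subunit, had the largest difference of the 67 genes, 0.61 (interval 0.27 to 0.96, adjusted p = 0.134), a ratio of 1.53. It read 10.33, 10.90 and 11.05 in the WT-dam group and 11.10, 11.36 and 11.80 in the UCP1-KO-dam group, without overlap. Rps7, of the body, read 13.86, 14.08 and 14.46 against 14.40, 14.60 and 15.28. Its highest value, on UCP1-KO-dam array 8, stood apart from the other 5, and 4 of 6 UCP1-KO-dam arrays lay above all WT-dam arrays. The difference of Rps7 was 0.57 (interval 0.24 to 0.90, adjusted p = 0.146) and 0.45 without array 8.

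Within the small subunit, most of the genes with small p-values encode proteins of the body and platform. Among body and platform proteins 12 of 16 listed were measured, 11 lay above 0 and 8 had an unadjusted p under 0.05, with a median of 0.44 (0.16 without WT-dam arrays 3 to 6). The shares over all probe sets were 56.8% above 0 and 7.08% higher at that p. Besides Rps3a1, Rps4x and Rps7 the 8 were Rps9 with 0.51, Rps13 with 0.49, Rps15a with 0.47, Rps24 with 0.40 and Rps14 with 0.36. Among head proteins 9 of 14 listed were measured and all 9 lay above 0, but only Rps20 had an unadjusted p under 0.05, and the median was 0.22 (-0.09 without WT-dam arrays 3 to 6, with 2 of 9 above 0). The difference between head and body was not tested.

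Rps6, the substrate of the S6 kinases whose phosphorylation is used as a readout of mTOR activity, read 16.30, 16.69 and 16.90 against 16.77, 16.90 and 16.96. Its difference was 0.24 (interval -0.02 to 0.51, adjusted p = 0.422), and the WT-dam values were more spread than the UCP1-KO-dam values (SD 0.22 and 0.07). Rps23, which reaches into the decoding centre, read 16.73, 17.02 and 17.24 against 16.98, 17.11 and 17.22 and had 0.12. Rps19, the gene most often mutated in Diamond-Blackfan anaemia, had 0.05 (interval -0.30 to 0.39). Rps26, which touches the messenger near its exit, was the 1 core gene of the small subunit below 0, with 11.76, 12.30 and 12.75 against 11.86, 12.17 and 12.52 and a difference of -0.13 (interval -0.48 to 0.22).

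**Figure D2:**
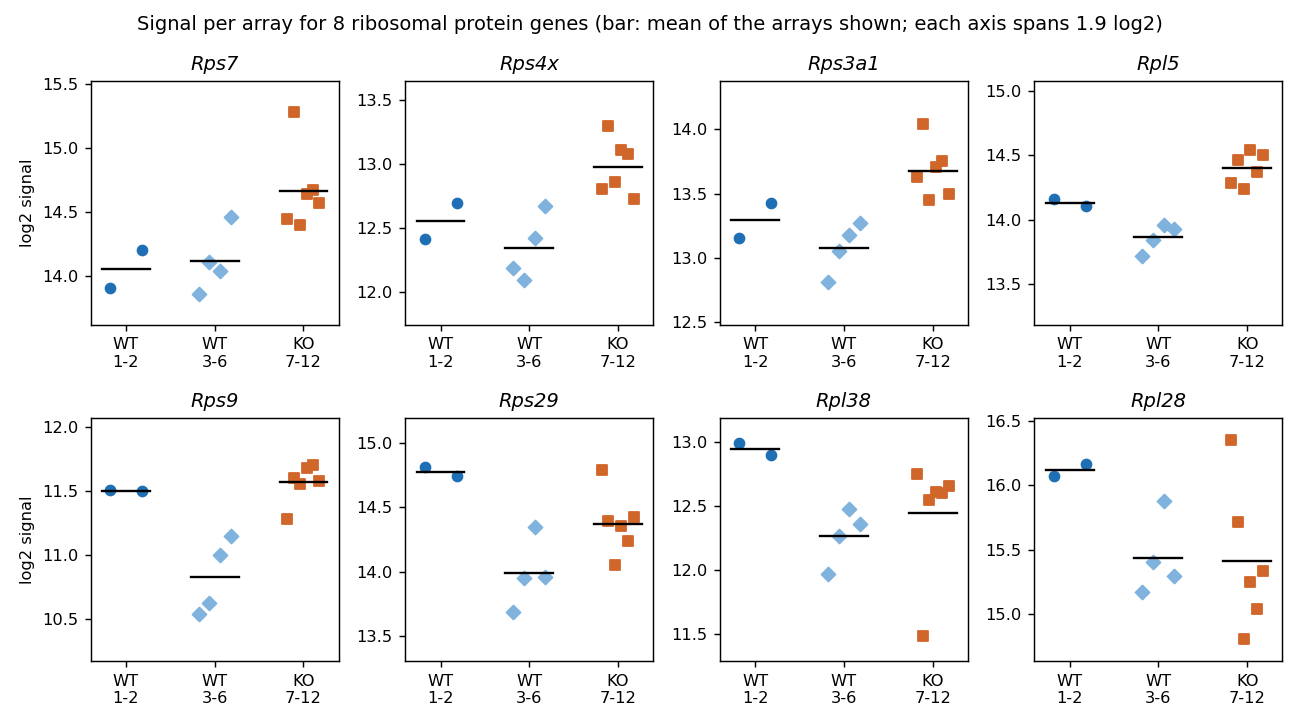
Signal (log2) of 8 genes on each array, 1 point per mouse, with a bar at the mean of WT-dam arrays 1 and 2, WT-dam arrays 3 to 6 and UCP1-KO-dam arrays 7 to 12; each panel spans the same range of log2 values. For Rps7, Rps4x, Rps3a1 and Rpl5 the bar of UCP1-KO-dam arrays lies above both WT-dam bars, while for Rps9 it lies within 0.06 of WT-dam arrays 1 and 2 and for Rps29, Rpl38 and Rpl28 it lies below them.

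The copies and paralogs gave small differences. Of 11 such genes 7 lay above 0, with a median of 0.12, and 0 had an unadjusted p under 0.05. Rps27l, a p53-induced copy of Rps27, had the largest of these differences, 0.22 (interval -0.04 to 0.49), with 12.38 to 12.79 in the WT-dam group and 12.50 to 12.96 in the other. Rpl10l, a testis copy of Rpl10, had 0.17, Rps4l, a copy of Rps4x, 0.12 and Rpl36al, a copy of Rpl36a, 0.06. Rpl3l with 0.13 and Rpl39l with -0.04 read below the mean negative control level, as did 11301 of the 22206 probe sets. Against the background control means of 4.95 to 5.05, Rpl39l lay above and Rpl3l below. Whether these 2 genes were expressed cannot be told from their signals. Whether the probe sets of the copies also take up the messenger of the parent gene was not tested. The 2 genes that are not ribosomal proteins had 0.18 (Rps19bp1) and -0.04 (Rps23rg1).

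The WT-dam arrays were not alike in these genes, and those with bright negative controls read lower. On arrays 3 to 6 the median deviation of the large subunit symbols from their own means was -0.36, -0.23, -0.20 and -0.05, whereas it was 0.13 and 0.14 on WT-dam arrays 1 and 2 and -0.04 to 0.15 on the UCP1-KO-dam arrays. For the small subunit it was -0.47, -0.32, -0.12 and -0.12 on arrays 3 to 6, 0.11 and 0.12 on arrays 1 and 2, and 0.03 to 0.18 on the UCP1-KO-dam arrays. Thus WT-dam arrays 1 and 2 lay within the UCP1-KO-dam range for both subunits and arrays 3 to 6 lay below it.

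**Figure D3:**
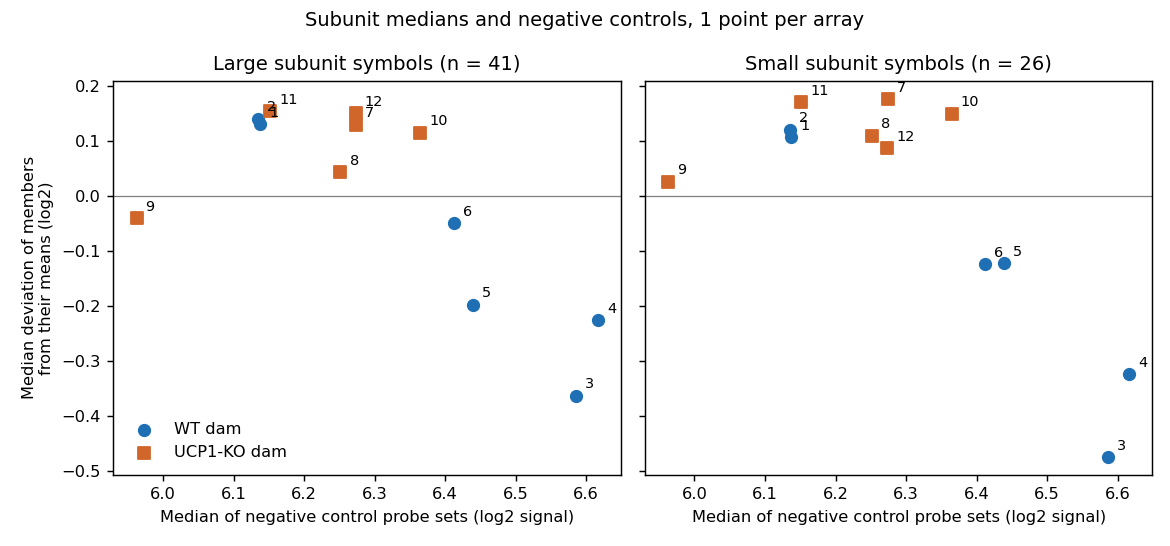
Median deviation of the large (left) and small (right) subunit symbols from their own means (log2) against the negative control median (log2 signal), 1 numbered point per array, by dam genotype. WT-dam arrays 3 to 6 lie at the lower right, with the brightest negative controls and subunit medians of -0.05 or less, and WT-dam arrays 1 and 2 lie among the UCP1-KO-dam arrays.

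Within the WT-dam group the split was nearly uniform across core genes. The mean of arrays 3 to 6 lay below the mean of arrays 1 and 2 for all 33 large subunit core genes and for 20 of 21 small subunit core genes, Rps7 being the exception, against 53.5% of all probe sets. All of arrays 3 to 6 lay below both of arrays 1 and 2 for 39 of the 67 genes (58.2%), against 11.6% of all probe sets. Among the 1951 brightest symbols 71.1% had the lower mean on arrays 3 to 6 and 23.7% had all 4 below both. In lists described further below, all 4 lay below both for 58.75% of 80 respiratory chain and ATP synthase genes. The share was 38.2% for 76 mitochondrial ribosomal proteins and 30.8% for 39 proteasome subunits. The lower mean on arrays 3 to 6 held for 96.25%, 90.8% and 94.9% of these lists. The median of this difference within the group was -0.29 in the large and -0.39 in the small subunit, against -0.12 for the 1951 brightest symbols and -0.02 over all probe sets. It was largest for Rps4l (-0.87) and Rps29 (-0.79), followed by Rpl36 (-0.70) and Rps21 (-0.70). The standard deviation was larger in the WT-dam group for 23 of 33 large and 18 of 21 small subunit core genes, and for 46.8% of all probe sets.

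Without WT-dam arrays 3 to 6, which leaves 2 mice against 6, the list medians lay near 0 and a smaller group of genes stayed well above it. The median difference became -0.03 in the large and -0.01 in the small subunit, with 17 of 41 and 12 of 26 symbols above 0. Of all probe sets 53.2% lay above 0, and of the 1951 brightest symbols 43.6%, with a median of -0.04, so the shares of both subunits were close to that of other bright genes. The signed difference was lower for 65 of the 67 genes, Rps7 and Rpl3l being the exceptions. Some of these came closer to 0 and others lay further below it, and 27 genes turned from above 0 to 0 or below. Of the 19 genes with an unadjusted p under 0.05 on 12 arrays, 18 stayed above 0, Rpl8 being the exception with -0.01. These 19 were picked on a fit that holds all the arrays left here, so staying above 0 was favoured in advance. Over the 67 genes 3 were higher at an unadjusted p under 0.05 (4.48%) and 3 lower, against 3.26% and 3.77% of all probe sets. The 3 higher genes, all among the 19, were Rps7 with 0.61 (interval 0.11 to 1.12), Rpl37a with 0.44 (interval 0.01 to 0.86) and Rpl7 with 0.43 (interval 0.03 to 0.82). Called genes numbered 0 of 67, and 0.00% of all probe sets.

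A difference above 0.3 both with and without arrays 3 to 6 was seen for 8 of 54 core genes. They were Rpl7, Rpl22 and Rpl37a of the large subunit and Rps3a1, Rps4x, Rps7, Rps15a and Rps20 of the small one. The share of all probe sets or of the brightest symbols that pass both cuts was not computed. Both differences use the same UCP1-KO-dam arrays and WT-dam arrays 1 and 2, so passing both cuts is not independent evidence. Without WT-dam arrays 3 to 6 Rps4x had 0.42, Rps3a1 0.39, Rps20 0.35, Rps15a 0.32 and Rpl22 0.31. Rps9, by contrast, went from 0.51 to 0.06. On its arrays 1 and 2 Rps9 read 11.50 and 11.50, within the UCP1-KO-dam range of 11.28 to 11.70, while arrays 3 to 6 read 10.54 to 11.15.

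Other genes lay below 0 when arrays 3 to 6 were left out. Rpl28 had -0.71 (interval -1.41 to -0.01), Rpl29 -0.59 (interval -1.04 to -0.15) and Rps26 -0.50 (interval -0.93 to -0.06), each with an unadjusted p under 0.05, where 3.77% of all probe sets were lower by that rule. Their adjusted p was 0.643 to 0.705. Rpl38, known for its part in the translation of Hox messengers, went from -0.05 to -0.50, Rps29 from 0.13 to -0.40 and Rps4l from 0.12 to -0.46. Rplp0 went from 0.16 to -0.24, Rps19 from 0.05 to -0.20 and Rpl11 from 0.31 to -0.01. Rps9, Rps29, Rpl38 and other genes given here beyond the naming rule were named after their values were seen.

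**Figure D4:**
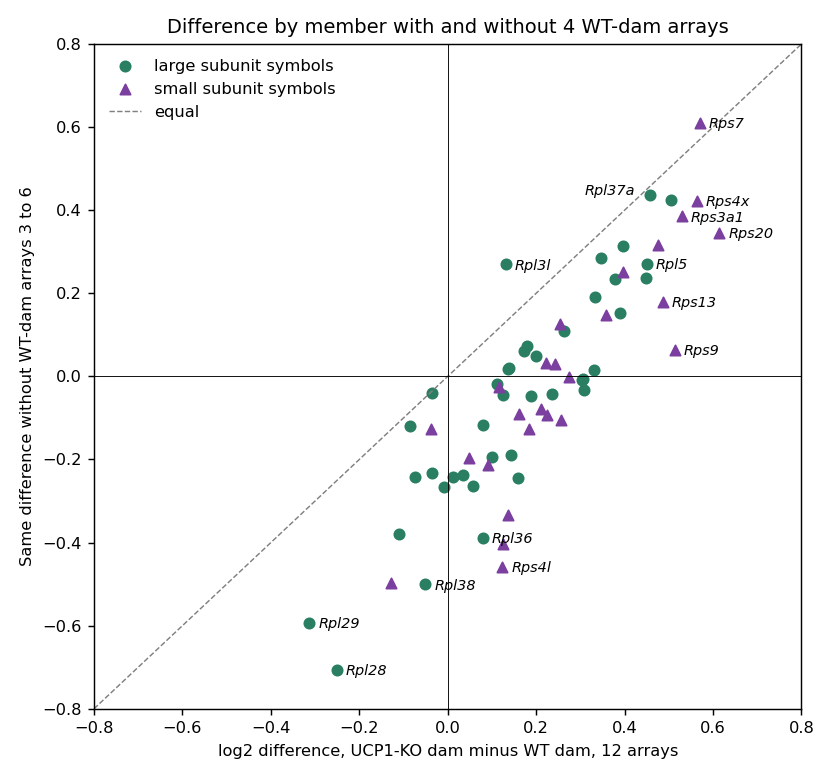
Difference of each of the 67 genes on 12 arrays (horizontal) against the same difference without WT-dam arrays 3 to 6 (vertical), both UCP1-KO dam minus WT dam on the log2 scale; circles are large and triangles small subunit symbols, and the dashed line marks equal values. All genes but Rps7 and Rpl3l lie below the dashed line, and Rps7, Rpl37a, Rps4x, Rps3a1 and Rps20 stay above 0.3 on both axes.

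Leaving out WT-dam arrays 1 and 2 instead moved the values the other way. The medians became 0.25 in the large and 0.39 in the small subunit, and 15 large and 18 small subunit symbols had an unadjusted p under 0.05 and were higher, against 7.95% of all probe sets. One gene was called, Rps9 with 0.74 (adjusted p = 0.0386), and 0.734% of all probe sets were. With the negative control median as a covariate the medians were 0.08 and 0.11. Of the 19 genes above, which were picked on the same arrays, 13 kept an unadjusted p under 0.05. Over the 67 genes 13 were higher and 1 lower by that rule, where 5.47% of all probe sets were higher. Called genes numbered 0 of 67, against 0.00901% of all probe sets. With each single array left out in turn, 9 to 14 large and 9 to 13 small subunit symbols were higher at an unadjusted p under 0.05. The share over all probe sets was 5.73% to 7.81%. In the large subunit 1 symbol was lower by that rule without array 3 or array 4, and 2 without array 7. Of the 67 genes 0 were called, where 1 to 112 of all probe sets were.

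The slope on the negative control median, with dam genotype as the other term, was below 0 for 52 of 54 core genes and for 53.9% of all probe sets. It was also below 0 for 1409 of the 1951 brightest symbols and for 73 of 80 respiratory chain and ATP synthase genes. The same held for 65 of 76 mitochondrial ribosomal proteins and 35 of 39 proteasome subunits, so slopes below 0 were not particular to the ribosomal protein genes. The median slope was -0.43 in the large and -0.69 in the small subunit per log2 unit of negative control signal. Of the 67 slopes 0 were called, against 0.0135% of all probe sets. The medians of the slope had opposite signs within the groups, a difference that was not tested. Within the WT-dam arrays 64 of 67 slopes were below 0 (54.1% of all probe sets), with medians of -0.85 and -1.16. On these arrays 1395 of the 1951 brightest symbols had slopes below 0, with a median of -0.33. So had 79 of 80 respiratory chain, 68 of 76 mitochondrial ribosomal and 35 of 39 proteasome genes, with medians of -0.89, -0.58 and -0.43. Within the UCP1-KO-dam arrays 47 of the 67 ribosomal protein slopes were above 0 (48.9% of all probe sets), with medians of 0.29 and 0.37. The other 20 genes had slopes below 0 there, among them Rps19 with -1.43 and Rpl36 with -1.16. The part of the negative control signal in the difference between the dams was not tested beyond these values.

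Other genes of the translation machinery with TOP messengers lay mostly above 0. Of 17 listed elongation and initiation factors and companions 16 were measured, 15 lay above 0 and 8 had an unadjusted p under 0.05, with a median of 0.29. Over all probe sets 56.8% lay above 0 and 7.08% were higher by that rule, and over the 1951 brightest symbols 54.8% and 10.8%. Without WT-dam arrays 3 to 6 the median was 0.12, with 12 of 16 above 0 and 4 higher at an unadjusted p under 0.05. On those arrays 53.2% of all probe sets lay above 0 and 3.26% were higher by that rule. Over the 1951 brightest symbols these shares were 43.6% and 1.79%. Eif3e, a subunit of initiation factor 3, read 11.08, 11.15 and 11.48 in the WT-dam group and 11.64, 11.69 and 12.09 in the UCP1-KO-dam group, with no overlap. Its difference was 0.55 (limma adjusted p = 0.0893). Without WT-dam array 2, 1 of 12 fits with an array left out, its limma adjusted p was 0.0431. In that fit 112 of all probe sets were called, against 1 to 54 with any other array left out. Nap1l1, a histone chaperone, had 0.71 (adjusted p = 0.0893), again with no overlap. Neither passed with all 12 arrays. The small subunit proteins Rpsa and Fau, whose symbols the rule does not catch, had 0.56 (adjusted p = 0.144) and 0.20. Without WT-dam arrays 3 to 6 the lower of their 2 values was -0.26 and the higher 0.32.

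Regulators of ribosomal protein genes lay on both sides of 0. Of 12 listed genes of mTOR signalling, LARP1 and the promoter factors 11 were measured, 4 lay above 0 and the median was -0.08. Gabpa, the DNA-binding subunit of GABP, read 11.86, 12.08 and 12.30 against 12.30, 12.42 and 12.79 with a difference of 0.40 (adjusted p = 0.191). The highest WT-dam and the lowest UCP1-KO-dam array of Gabpa were nearly equal, and the groups did not overlap. Myc had -1.59 (adjusted p = 0.356) with standard deviations of 2.08 and 1.04. Of the chaperones and assembly factors of ribosomal proteins, 8 of 8 measured, 4 lay above 0 with a median of 0.04. Aamp, the relative of the yeast chaperone of Rpl10, had 0.41, and -0.09 without WT-dam arrays 3 to 6. Tsr2, a chaperone of Rps26, had 0.18.

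Lists of other widely expressed complexes were set beside these values, without matching for signal. On WT-dam arrays the mean signal was 9.25 to 9.64 for mitochondrial ribosomal proteins and 10.79 to 11.06 for proteasome subunits. It was 11.92 to 12.43 for the respiratory chain and ATP synthase, 13.24 to 13.76 for large and 12.49 to 13.09 for small subunit core genes. The 76 mitochondrial ribosomal proteins had a median of 0.04 (-0.14 without arrays 3 to 6), the 80 genes of the respiratory chain and ATP synthase 0.12 (-0.13) and the 39 proteasome subunits 0.09 (-0.01). The unadjusted p was under 0.05 and the difference above 0 for 6, 5 and 3 of them (7.89%, 6.25% and 7.69%), near the 7.08% of all probe sets. The members with the smallest p were Mrpl24 with 0.44 and Mrpl50 with 0.35, Ndufc2 with 0.46 and Cox4i1 with 0.39, and the immunoproteasome subunit Psmb9 with -0.66 and Psmd14 with -0.34. The split within the WT-dam group was present in these lists too: the median of arrays 3 to 6 minus arrays 1 and 2 was -0.25, -0.37 and -0.21. The difference between these lists and the ribosomal proteins was not tested.

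**Figure D5:**
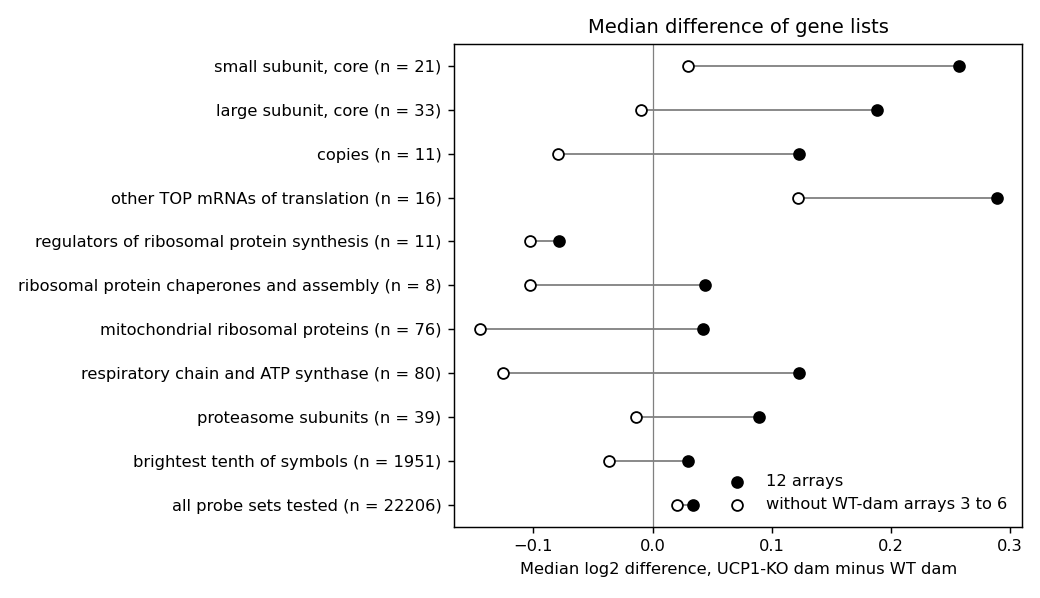
Median log2 difference (UCP1-KO dam minus WT dam) of each gene list on 12 arrays (filled) and without WT-dam arrays 3 to 6 (open), with the number of measured genes in brackets; the last rows are the 1951 brightest symbols and all 22206 probe sets. Filled points of the core lists and of the other TOP messengers lie at 0.19 to 0.29, and the open points of both core lists lie near 0 while that of the other TOP messengers lies at 0.12.

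Markers of the cell types that a liver sample can hold were set beside these values. The 6 measured hepatocyte markers had a median difference of 0.06, with 0 at an unadjusted p under 0.05. The 7 Kupffer cell markers had a median of 0.10, and -0.44 without WT-dam arrays 3 to 6. Their mean signal ranged from 9.02 to 10.56 in the WT-dam group and from 9.19 to 9.96 in the other, and the top of the first range was WT-dam array 2, whose median deviation was 0.89. On WT-dam arrays 3 to 6 the Kupffer median deviation was -0.38 to -0.10, and on array 1 it was -0.09. It was -0.225 and -0.221 on UCP1-KO-dam arrays 7 and 10, where the ribosomal protein medians were 0.11 to 0.18. On array 11 it was 0.51, with ribosomal protein medians of 0.15 (large) and 0.17 (small). On array 8 it was 0.13, with 0.04 and 0.11. On arrays 9 and 12 it was 0.02 and -0.03, with -0.04 and 0.03 on array 9 and 0.15 and 0.09 on array 12. All 7 Kupffer markers had a lower mean on WT-dam arrays 3 to 6 than on arrays 1 and 2, with a median difference of -0.66. Within the WT-dam arrays all 7 had slopes below 0 on the negative control median. Over all probe sets these 2 shares were 53.5% and 54.1%. The counts were 6 and 5 of 6 hepatocyte, 5 and 6 of 6 stellate cell and 5 and 7 of 7 lymphocyte markers. They were 3 and 3 of 5 sinusoidal endothelial, 2 and 2 of 4 cholangiocyte, 2 and 2 of 4 proliferation and 2 and 1 of 4 neutrophil markers. The part of Kupffer cells in the difference between the dams was not tested.

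The other cell types gave medians between -0.01 and 0.22. Among 5 sinusoidal endothelial markers Lyve1 had 0.94 and Stab2 -0.74 (adjusted p = 0.191 and 0.175), in opposite directions, and the list median was 0.03. The 6 stellate cell markers had a median of 0.05, the 4 measured cholangiocyte markers -0.01, the 7 lymphocyte markers 0.19 and the 4 measured proliferation markers 0.14. Of the lymphocyte markers 6 of 7 and of the neutrophil markers 4 of 4 measured (median 0.06) had mean signals below the negative controls. So had 3 of 4 proliferation and 2 of 4 cholangiocyte markers, and 11301 of all 22206 probe sets. The 1 measured red cell marker, Alas2, had 0.22.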

How the data were processed

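Liver RNA of 12 mice was measured on 12 arrays. The deposited values are log2 signals that the authors made; the submitters' processing notes name the Transcriptome Analysis Console and RMA, and versions and genome build are not given in the sources used here. RMA brings all arrays to 1 distribution, so a shift shared by all genes cannot be seen. Symbols came from the platform annotation, and all 67 genes matched RefSeq by Entrez number.

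Control probe sets (5222 negative, 1324 positive, 23 background and 71 spike) were left out, and limma 3.58.1 in R 4.3.3 was fitted to 22206 probe sets with dam genotype as the term and default settings. The p-values are two-sided, with Benjamini-Hochberg adjustment over all probe sets, and intervals are 95%. The script was checked on simulated data. The number of arrays limits the precision. For a symbol with several probe sets the one with the highest mean was used.

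The members and gene lists were chosen with earlier results of these data known. The genes given with full values are, in each subunit, called members, the 4 lowest and 4 highest moderated test statistics, the 2 highest and 2 lowest mean signals, the stalk and 5S proteins, Rps6 and the paralogs, plus the 2 smallest p-values of each list. Alternatives were quantile normalization, median centring, filters on dim probe sets, a mean of probe sets, a variance trend, the negative control covariate and left-out arrays. Promoter entries are from RefSeq GRCm38.p6; protein sequences were not used here.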

Additional observations from a re-analysis of the deposited data

Results flagged for a closer look

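In 4 of 64 groups of 6 arrays, 1 value lay far from the other 5, measured as its gap to the nearest value over the range of the group against Dixon's 95% critical value. At that value chance alone would pick about 5% of groups. Rps7 read 15.28 on UCP1-KO-dam array 8, where the nearest of the other 5 read 14.67 and the lowest 14.40. Rpl4 also had its highest value on array 8, 16.26, with the others between 15.93 and 16.00. Rpl37a read 12.08 on UCP1-KO-dam array 9, with the others between 12.51 and 12.71. Rps23rg1 read 8.24 on UCP1-KO-dam array 11, with the others between 7.04 and 7.36.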

How the results depend on the processing

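No paired analysis was possible because the labels give the groups no shared replicate numbers. Over 21 alternatives the number of called genes stayed 0 in both subunits except without WT-dam arrays 1 and 2, an alternative chosen after seeing the data, where it was 1 in the small subunit. Without WT-dam arrays 3 to 6 the median difference was -0.033 in the large and -0.014 in the small subunit. With 1 array left out at a time the medians ranged from 0.11 to 0.20 and from 0.17 to 0.29. Quantile normalization gave 0.19 and 0.25, and median centring 0.11 and 0.20.

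Signs turned for some of the 30 genes given with full values, each with a difference whose interval on 12 arrays included 0. Without WT-dam arrays 3 to 6 the differences were -0.0062 for Rpl11, -0.044 for Rpl22l1, -0.26 for Rpl36al, -0.24 for Rplp0, -0.12 for Rplp1, -0.20 for Rps19, -0.13 for Rps19bp1, -0.026 for Rps23 and -0.46 for Rps4l. With the covariate they were -0.11 for Rpl36al, 0.014 for Rpl39l, -0.055 for Rplp0, -0.17 for Rps19 and -0.019 for Rps4l. Without WT-dam arrays 1 and 2 they were 0.025 for Rpl21, 0.0080 for Rps23rg1 and 0.056 for Rps26. With 1 array left out the ranges crossed 0 for Rpl36al (-0.041 to 0.16), Rpl39l (-0.13 to 0.060), Rps19 (-0.025 to 0.14), Rps23rg1 (-0.21 to 0.10) and Rps4l (-0.095 to 0.26). The cause was not tested.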

Other observations

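The 7 symbols that the name rule left out were read as well. Among the genes with an S6 kinase symbol (Rps6k), not all of which encode kinases of Rps6, the log2 differences were 0.40 for Rps6ka5, 0.29 for Rps6ka3, 0.27 for Rps6ka6, -0.03 for Rps6kc1, -0.11 for Rps6kb2 and -0.16 for Rps6kl1. The pseudogene Rpl31-ps12 had 0.15.

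Fau, a small subunit protein made as a fusion with a ubiquitin-like protein, read 12.90 to 12.94 on all 6 UCP1-KO-dam arrays and 12.27 to 13.30 on the WT-dam arrays.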
